A study of Rattus norvegicus with 12 samples.

Results

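The glutamate and GABA receptor genes of the rat striatum were followed across 12 one-colour microarrays. Members were the probes whose gene name in the array files is an ionotropic or metabotropic glutamate receptor subunit (Gria, Grik, Grin, Grid, Grm) or a GABA-A or GABA-B receptor subunit (Gabra, Gabrb, Gabrg, Gabrd, Gabre, Gabrq, Gabbr), with Grina left out. This gave 60 probes of 43 genes among 40998 probes on the array. A signal well above background on 3 or more arrays was found for 54 probes of 40 genes, which are described below, among 32230 probes (27056 gene names) that met the same condition. The other 6 probes belong to Gabra6, Gabre, Grm6 and Gria4, and Gria4 keeps 2 other probes.

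Each array held RNA from both striata of 1 male Sprague-Dawley rat. The rats had spent 40 minutes in air, in carbon monoxide (CO) at 1000 or 3000 ppm, or in 5% oxygen (O2). Striata were taken 0, 2, 6 and 12 hours after either dose of CO. For 5% O2 the hours were 0, 2 and 6, and for air only 0. All rats were anaesthetised with pentobarbital and perfused with chilled saline before dissection. No combination of exposure and hour was repeated, so no difference from air has a replicate check, and all 11 differences share the single air rat.

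Values are log2 processed signal minus the 75th percentile of the same array, so a difference of 1 is 2-fold. Between 72.9% and 78.7% of spots were well above background on each array, and none was saturated. All 4 arrays of 1000 ppm CO lay on slide 2, so that exposure and that slide cannot be told apart. Slide 1 held air and 3000 ppm CO at 0, 2 and 6 hours, and slide 3 held 3000 ppm CO at 12 hours with the 5% O2 arrays. By the scan dates, slide 1 was scanned in session 1, and slides 2 and 3 in session 2. Only 3000 ppm CO at 0, 2 and 6 hours thus shared a slide and a session with air. In every other difference from air, exposure cannot be told apart from slide and session. All 16 measured markers of medium spiny neurons, the main striatal projection cell, were well above background on every array. Their median was 3.19 below air at 0 hours after 5% O2, 0.86 below air at 6 hours after 1000 ppm CO, and above air on the other 9 arrays, by 0.08 to 1.04. In such tissue RNA, fewer cells of a type and less RNA per cell cannot be told apart.

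Glutamate is the main excitatory transmitter reaching the striatum, from cortex and thalamus, and GABA is the transmitter of the striatal projection neurons themselves. AMPA, kainate and NMDA receptors are tetrameric cation channels, GABA-A receptors are pentameric chloride channels, and the mGlu and GABA-B receptors act through G proteins. Subunit choice sets calcium entry, kinetics and drug sensitivity, and calcium entry through NMDA receptors is a textbook route of injury when oxygen is short.

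The 60-base sequences of 3 probes are printed here 5′ to 3′ as the array files give them, on build rn4. Those of Grin1 and Gabbr1 are shown because other probes of the same gene gave different values, and that of Grm5 because it was at least 2-fold below air on 3 arrays. The Grin1 probe reads the alternatively spliced amino-terminal cassette of the obligatory NMDA subunit. The Grin1, Grm5 and Gabbr1 probes span more genome than their own length, so each crosses at least 1 intron. Exon and UTR annotation of that build was not used here.
Grin1 (A_44_P240900, chr3:3471906-3472908): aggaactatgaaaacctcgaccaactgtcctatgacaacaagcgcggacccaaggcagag
Grm5 (A_44_P505968, chr1:144461593-144476430): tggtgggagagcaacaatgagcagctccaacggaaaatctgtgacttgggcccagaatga
Gabbr1 (A_44_P313708, chr20:1577515-1578777): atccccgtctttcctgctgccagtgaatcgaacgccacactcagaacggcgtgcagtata

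Against air, 25 of 594 probe-and-array pairs of the receptors were at least 2-fold lower, which is 4.21% beside 4.08% of all pairs tested. Another 21 pairs were at least 2-fold higher, 3.54% beside 2.71%. The lower pairs came from 12 probes and the higher pairs from 10. The receptor counts were therefore near the background in both directions. After 1000 ppm CO, 3 receptor probes were lower and 4 higher at 0 hours (all probes, 5.73% and 3.22%), 3 and 4 at 2 hours (6.08% and 4.19%), 4 and 1 at 6 hours (6.53% and 2.46%) and 2 and 2 at 12 hours (4.57% and 2.83%). After 3000 ppm CO, none was lower or higher at 0 hours (1.82% and 1.65%), 1 and 0 at 2 hours (3.21% and 2.16%), 2 and 1 at 6 hours (3.06% and 3.29%) and 4 and 4 at 12 hours (5.04% and 2.86%). After 5% O2 the counts were 4 and 5 at 0 hours (4.66% and 4.0%), 0 and 0 at 2 hours (1.64% and 2.04%) and 2 and 0 at 6 hours (2.51% and 1.14%). The array at 0 hours after 5% O2 thus had the most receptor probes past 2-fold. A range of at least 1 over the 12 arrays was seen in 42 of 54 receptor probes (77.8%, beside 45.2% of all probes), while a range of at least 2 was seen in 4 (beside 13.1% of all probes).

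**Figure D1:**
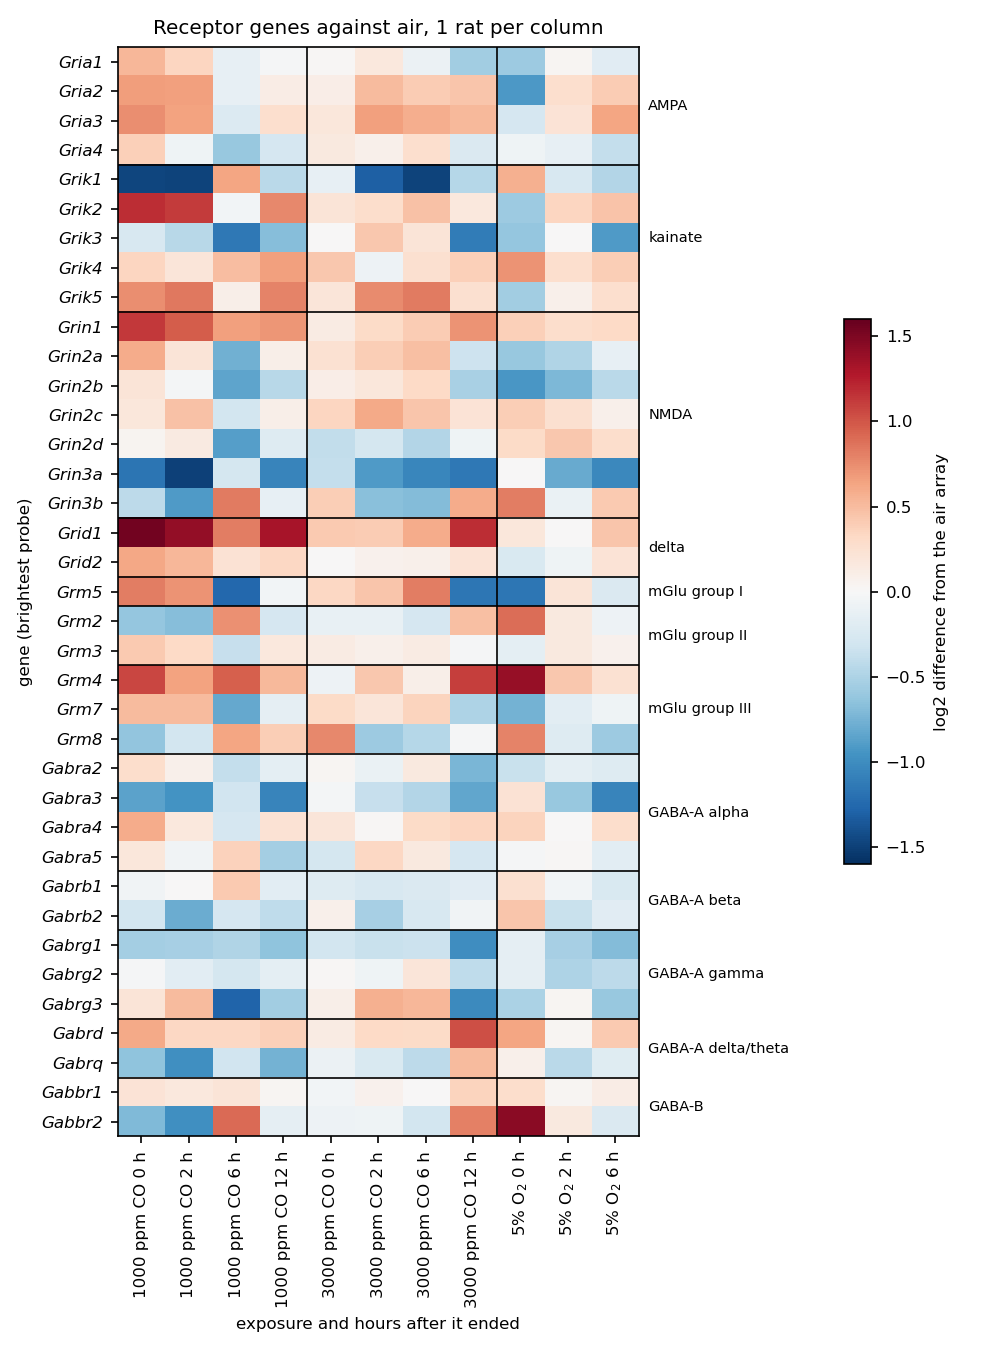
Log2 difference from the air array (colour) for the brightest probe of each of 37 receptor genes (rows, by class), in each of the 11 exposed arrays (columns, 1 rat each). Grik1 is blue where Grik2 is red at 0 and 2 hours after 1000 ppm CO, and Grid1 lies above air in every column.

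**Figure D2:**
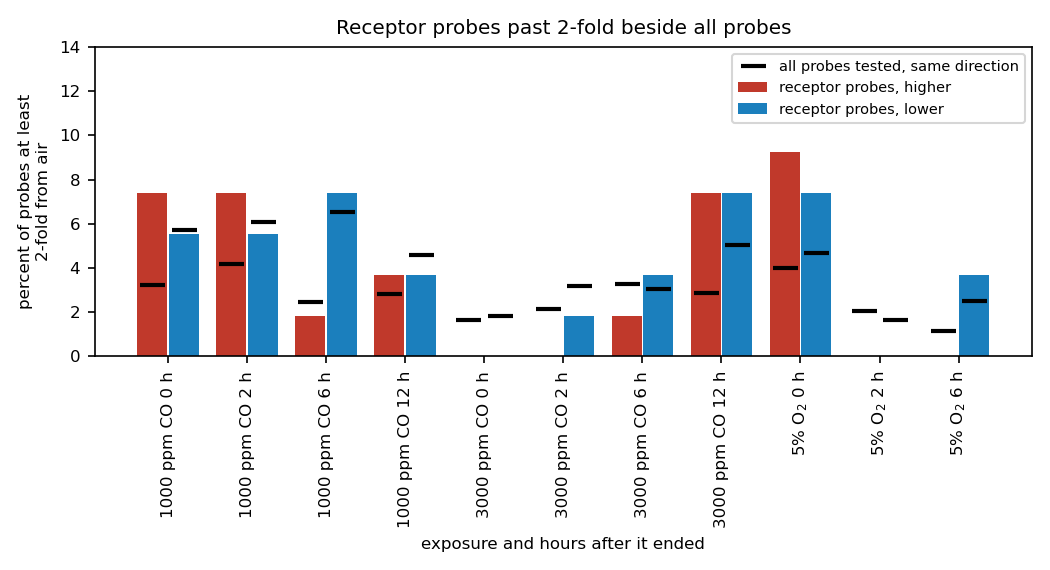
Percent of the 54 receptor probes at least 2-fold higher (red) or lower (blue) than air in each exposed array, with the percent of all 32230 probes tested as black marks. No receptor probe passed 2-fold at 0 hours after 3000 ppm CO or 2 hours after 5% O2.

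Of the AMPA receptor genes, which carry fast excitation, Gria2 encodes the subunit that keeps calcium out of the channel. After 1000 ppm CO, Gria2 differed from air by 0.67, 0.66, -0.13 and 0.12 at 0, 2, 6 and 12 hours. After 3000 ppm CO it differed by 0.10, 0.51, 0.41 and 0.44 at the same hours, and after 5% O2 by -0.91, 0.27 and 0.40 at 0, 2 and 6 hours. It was thus lowest at 0 hours after 5% O2, and its second probe was lowest there too, at -0.94. The median of the 4 AMPA genes was 0.60 above air at 0 hours after 1000 ppm CO and 0.43 below it at 0 hours after 5% O2 (log2 difference -0.43).

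The kainate receptor genes did not share a pattern. Grik1, a low-affinity subunit, differed from air by -1.47, -1.49, 0.63 and -0.43 after 1000 ppm CO and by -0.13, -1.30, -1.48 and -0.46 after 3000 ppm CO. After 5% O2 it differed by 0.56, -0.26 and -0.47. It was at least 2-fold below air on 4 arrays and above air on 2, and its second probe was also below air on those 4 arrays. That probe differed by -0.85, -0.71 and -0.91 on 3 of them; at 0 hours after 1000 ppm CO it was not well above background, and its difference of -1.05 is a bound set by the floor of that array. The marker list of septal and thalamic neurons had medians of -2.11, -2.18, -1.51 and -2.0 on the same 4 arrays, and 0.61 and 1.03 on the 2 arrays where Grik1 was above air. Its part in the result was not tested.
Grik2, the other widely expressed low-affinity subunit, differed from air by 1.18, 1.12, -0.05 and 0.77 after 1000 ppm CO. The values were 0.21, 0.28, 0.47 and 0.16 after 3000 ppm CO. They were -0.58, 0.34 and 0.45 after 5% O2. Grik5, a high-affinity subunit, lay above air on all arrays but 0 hours after 5% O2, where it was at -0.56. Grik3 was at -1.15 at 6 hours after 1000 ppm CO and at -1.12 at 12 hours after 3000 ppm CO. It was well above background on all 12 arrays, but dim. Its level on the second of these arrays was -5.35, near that array's floor of -5.57. Grik4 was between -0.08 and 0.72 throughout.

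Of the NMDA receptor genes, Grin1 lay above air on all 11 exposed arrays with both of its probes. Its brightest probe differed from air by 1.13, 0.96, 0.66 and 0.71 after 1000 ppm CO, by 0.13, 0.31, 0.40 and 0.72 after 3000 ppm CO, and by 0.38, 0.28 and 0.32 after 5% O2. The cassette probe printed above reached 1.40 at 0 hours after 5% O2, where the brightest probe was at 0.38. Being above air on all arrays is shared by 4 of 54 receptor probes (7.41%, beside 9.44% of all probes), namely both Grin1 probes, Grid1 and Gabrd, and all rest on the 1 air rat. Grin2a and Grin2b, the subunits that bind glutamate in most forebrain NMDA receptors, were lowest at 6 hours after 1000 ppm CO (Grin2a, -0.76) and at 0 hours after 5% O2 (Grin2b, -0.93). Grin3a, which lowers calcium flow, was at air's level at 0 hours after 5% O2 and below air on the other 10 arrays, down to -1.49 at 2 hours after 1000 ppm CO. Grin3b lay between -0.91 and 0.83, and was not well above background on 3 arrays (0 and 2 hours after 1000 ppm CO and 2 hours after 3000 ppm CO), the lowest value among them.
Grid1, a delta receptor that organises synapses rather than responding to glutamate, was at 1.55, 1.40, 0.82 and 1.32 after 1000 ppm CO, at 0.42, 0.40, 0.59 and 1.18 after 3000 ppm CO, and at 0.18, 0.01 and 0.44 after 5% O2. Its values after 1000 ppm CO, all on slide 2, did not overlap those after 5% O2, all on slide 3. The share of all probes without such overlap was not counted, and exposure and slide cannot be told apart here.

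Among the G protein-coupled glutamate receptors, Grm5, the group I receptor abundant in medium spiny neurons, differed from air by 0.81, 0.72, -1.25 and -0.05 after 1000 ppm CO, by 0.33, 0.44, 0.82 and -1.16 after 3000 ppm CO, and by -1.15, 0.21 and -0.23 after 5% O2. It was at least 2-fold below air on 3 arrays, 1 of each exposure and each at another hour. Its second probe was also below air on these arrays, by -0.84, -0.81 and -1.40 in the same order of exposures. That probe was thus past 2-fold only at 0 hours after 5% O2. The medium spiny neuron marker median was -0.86, 0.20 and -3.19 on those 3 arrays, in the order given, and its part in the result was not tested. Grm2, an inhibitory group II autoreceptor, differed from air by -0.62, -0.68, 0.73 and -0.27 after 1000 ppm CO, by -0.12, -0.12, -0.27 and 0.48 after 3000 ppm CO, and by 0.89, 0.15 and -0.08 after 5% O2. Grm4, a presynaptic group III receptor, was above air on 10 of 11 arrays, up to 1.39 at 0 hours after 5% O2. Grm8, of the same group, was at 0.77 at 0 hours after 3000 ppm CO and at 0.79 at 0 hours after 5% O2, but at -0.63 at 0 hours after 1000 ppm CO.

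**Figure D3:**
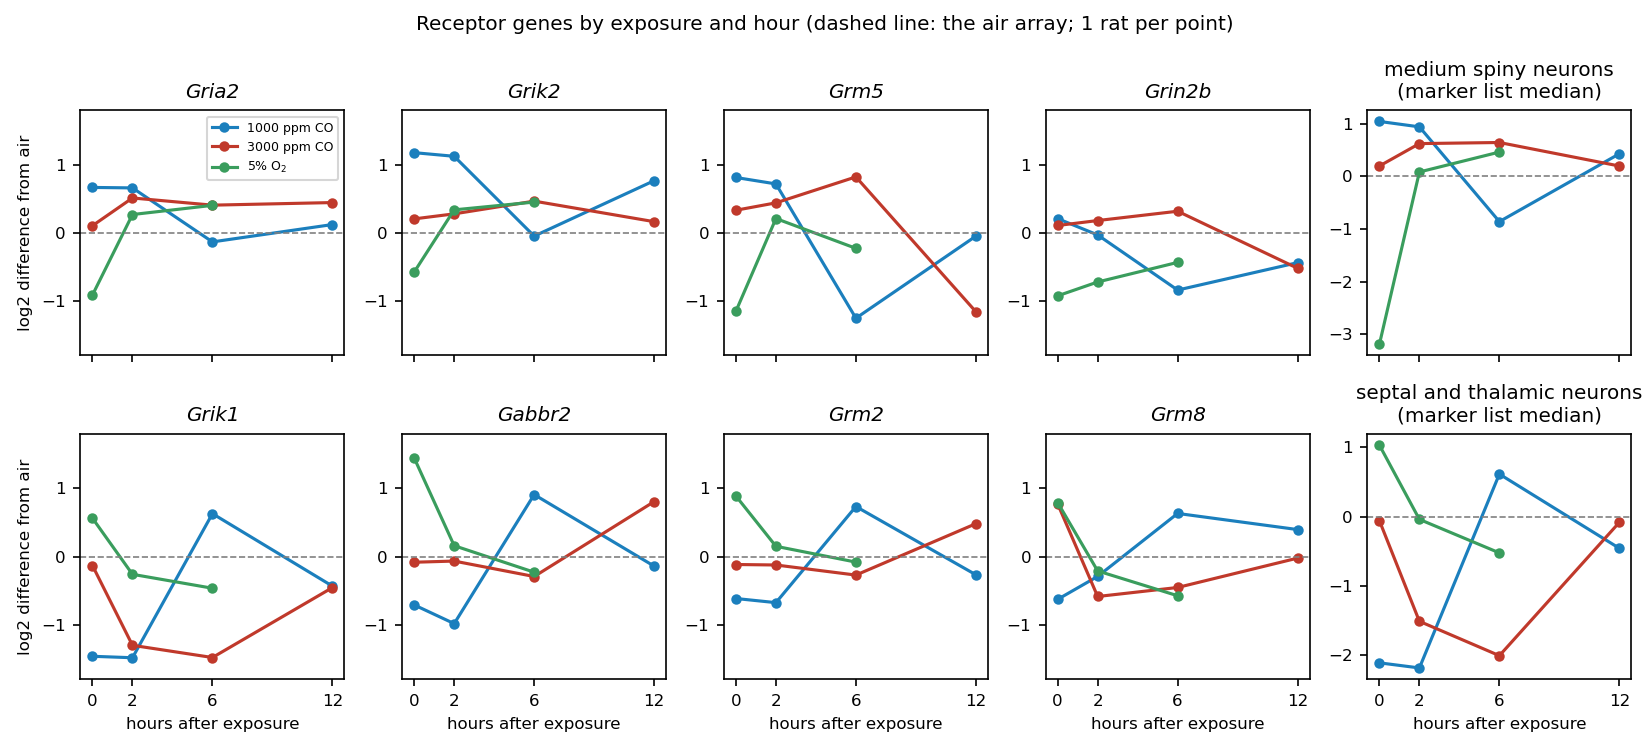
Log2 difference from the air array (vertical axis; dashed line at 0) against hours after exposure, for 8 receptor genes and the medians of 2 marker lists, with 1 rat per point. Gria2, Grik2, Grm5 and Grin2b are lower at 0 hours after 5% O2 than at 0 hours after 1000 ppm CO, and Grik1, Gabbr2, Grm2 and Grm8 are higher.

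Of 15 GABA receptor genes, 12 (80.0%) lay below air at 12 hours after 1000 ppm CO and at 6 hours after 5% O2, beside 49.9% and 53.2% of all probes. At 0 hours after 5% O2, 6 (40.0%) lay below air, beside 49.4% of all probes. At 0 and at 2 hours after 1000 ppm CO the split was 8 below and 7 above. Apart from the arrays at 80.0%, the share below air lay between 40.0% and 66.7%, beside 42.0% to 54.6% of all probes. Each gene was counted by its brightest probe, whereas the background counts probes. Gabrg1 was the one receptor probe below air on all 11 arrays (1.85%, beside 7.7% of all probes), with its lowest value of -1.0 at 12 hours after 3000 ppm CO. Gabra3 reached -1.05 at 12 hours after 1000 ppm CO and -1.06 at 6 hours after 5% O2. Gabrd, the subunit of extrasynaptic receptors, was highest at 12 hours after 3000 ppm CO, at 1.03. Gabrg3 was at -1.29 at 6 hours after 1000 ppm CO and at -1.02 at 12 hours after 3000 ppm CO.

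The GABA-B receptor needs both of its subunits, Gabbr1 and Gabbr2. Gabbr2, which couples to the G protein, differed from air by -0.71, -0.99, 0.91 and -0.14 after 1000 ppm CO. It differed by -0.08, -0.07, -0.29 and 0.81 after 3000 ppm CO, and by 1.45, 0.16 and -0.23 after 5% O2. Its highest value stood on the array where the medium spiny neuron markers were lowest and the septal and thalamic markers highest (median 1.03), and their part in the result was not tested. The brightest Gabbr1 probe stayed between -0.05 and 0.35 on all exposed arrays.

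Probes of the same gene differed by over 1 from each other in 4 of 13 genes with several probes. For Gabbr1, 2 lesser probes were at -1.45 and -1.0 at 6 hours after 1000 ppm CO, where the brightest was at 0.21. For Grin1 the gap was that between 0.38 and 1.40 at 0 hours after 5% O2, given above. The direction for Gabbr1, and the size for Grin1, thus hold for a probe and not for the gene.

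**Figure D4:**
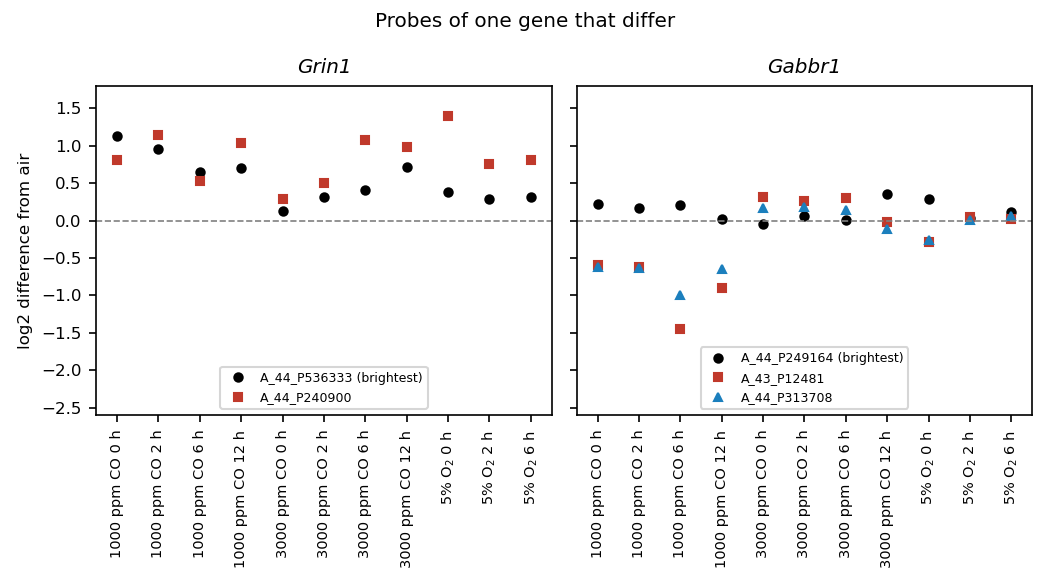
Log2 difference from air for each probe of Grin1 and Gabbr1, whose probes differ by over 1, in the 11 exposed arrays (1 rat each). The 2 lesser Gabbr1 probes are below air in all 4 arrays of 1000 ppm CO while the brightest is above it.

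Exposures and hours were compared in an additive limma model over the 12 arrays, with Benjamini-Hochberg adjustment over all 32230 probes. For hours after exposure, no receptor probe passed adjusted p 0.05 at 2, 6 or 12 hours against 0 hours (background 0.0155%, 0.0186% and 0.0124%), and 3, 1 and 1 had an unadjusted p under 0.05 (all probes, 3.68%, 2.72% and 5.61%). Among the largest differences at 2 hours were those of Grin3b, Grm8, Grik1 and Gabrb2. Gabrb2 differed by -0.64 ± 0.14 (SE; limma adjusted p = 0.971). At 6 hours Grm8, Gabra3, Gria4 and Gabrg3 were among them, between -0.44 and -0.38. At 12 hours Gabrg3, Grm5, Gabra3 and Grik3 were, between -0.87 and -0.71. The difference of 6 from 0 hours had the same sign in all 3 exposures for 2 of 54 receptor probes (3.7%, beside 16.8% of all probes). The other differences between hours were nearer the background. The sign was shared for 18 probes at 2 from 0 hours (33.3%, beside 37.2%) and for 10 at 6 from 2 hours (18.5%, beside 20.9%). At 12 from 0 hours, over both doses of CO alone, it was shared for 32 (59.3%, beside 54.8%).

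Between the doses of CO, 2 receptor probes passed, both of Gabbr1 and both higher after 3000 ppm than after 1000 ppm CO (background 4.43%), and 5 had an unadjusted p under 0.05 (all probes, 19.1%). The printed probe differed by 0.82 ± 0.14 (SE; limma adjusted p = 0.0244) and the other by 1.11 ± 0.20 (limma adjusted p = 0.028). The brightest Gabbr1 probe differed by -0.06 ± 0.13 (limma adjusted p = 0.855). With normexp background correction the differences were 0.18 (limma adjusted p = 0.515) and 0.65 (limma adjusted p = 0.116), and neither passed. Neither call held without any 1 of the 1000 ppm CO arrays at 0 or 2 hours, the 3000 ppm CO arrays at 0, 2 or 6 hours, or the 5% O2 array at 2 hours, where adjusted p lay between 0.055 and 0.111, nor with the slide as a random block (adjusted p = 1.0).

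Between 1000 ppm CO and 5% O2, no receptor probe passed with all arrays (background 0.36%) and 12 had an unadjusted p under 0.05 (all probes, 12.3%). The 5 largest differences were those of Grid1 (0.97 ± 0.24, SE; limma adjusted p = 0.19), Gabbr2 (-0.83), Grik1 (-0.74), Grik2 (0.70) and Grik5 (0.70). The count stayed at 0 when any 1 of the other 11 arrays was left out, the 5% O2 array at 0 hours included. Without the 1000 ppm CO array at 6 hours, 16 of 54 probes of 14 genes passed (29.6%, background 6.44%), and 35 had an unadjusted p under 0.05 (all probes, 30.4%). Of the 16, 11 probes of 9 genes were higher after 1000 ppm CO, among them the brightest probes of Grid1, Grik2, Grik5, Grin2a and Grin2b. Of the Grm5 probes the lesser one passed (limma adjusted p = 0.0399) and the printed one did not (limma adjusted p = 0.0587). The 5 lower probes were those of Gabbr2, Grik1, Grin3b, Grm2 and Gabrb2. Of these, Grin3b was not well above background on the 1000 ppm CO arrays at 0 and 2 hours, which stayed in this fit. Without that array Gabbr2 differed by -1.52 ± 0.31 (SE; limma adjusted p = 0.046) and Grik5 by 1.05 ± 0.15 (limma adjusted p = 0.0288). The array that was left out is one of those where medium spiny neuron markers were below air, and the array at 0 hours after 5% O2 stayed in the fit. All 1000 ppm CO arrays lay on slide 2 and all 5% O2 arrays on slide 3. Exposure and slide therefore cannot be told apart in this comparison, with or without that 6 hour array.

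**Figure D5:**
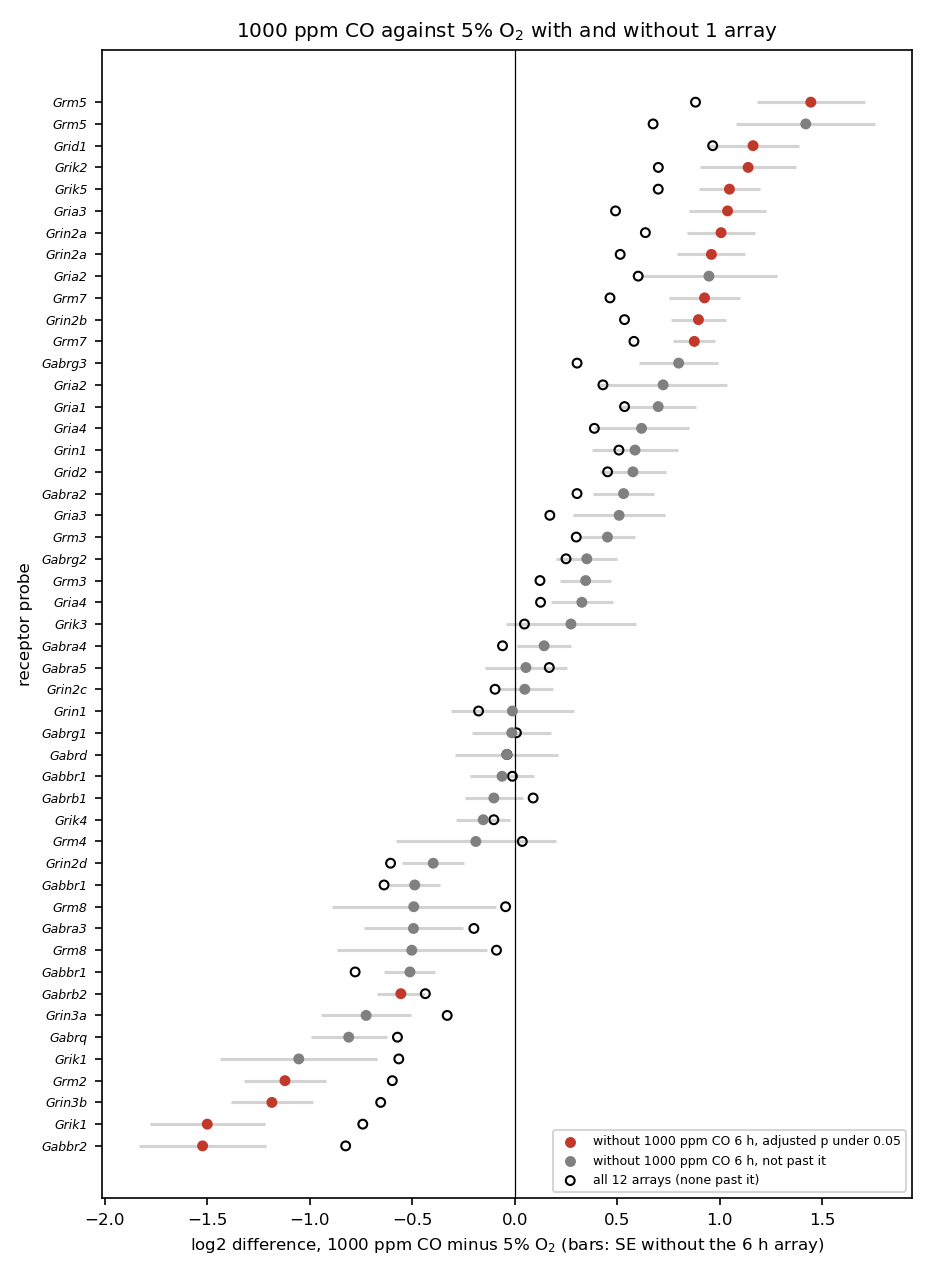
Log2 difference of 1000 ppm CO minus 5% O2 (horizontal axis) for 49 of the 54 receptor probes (rows), with all 12 arrays (open circles) and without the 1000 ppm CO array at 6 hours (filled, with SE bars; red where the adjusted p is under 0.05). The 15 red probes lie on both sides of 0, and no open circle passed; leaving out any other single array gave no call.

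Between 3000 ppm CO and 5% O2, no receptor probe passed (background 0.0%) and 4 had an unadjusted p under 0.05 (all probes, 14.6%), with Grik1, Grin2b, Grm5, Grin2d and Grin2a the 5 largest (Grin2b 0.83 ± 0.28, SE; limma adjusted p = 0.286). No receptor probe passed against air for 1000 ppm CO (background 0.109%), 3000 ppm CO (background 0.00621%) or 5% O2 (background 0.0%), and 5, 0 and 1 had an unadjusted p under 0.05 (all probes, 11.7%, 4.38% and 7.3%). These comparisons rest on the single air array, which was assumed to vary like the others. Grid1 had the largest difference for 1000 ppm CO, at 1.25 ± 0.37 (SE; limma adjusted p = 0.261), followed by Grm4, Grin1, Grin3a and Grik2.

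The partners of the receptors were read from lists of the same pathways. None of 12 genes of glutamate synthesis and transport, 8 of GABA synthesis and transport or 29 measured auxiliary subunits and anchors of glutamate receptors passed in any of the 9 contrasts. Of 14 measured anchors and partners of GABA receptors, 1 passed in 1 contrast, in which 4.43% of all probes passed. This was Lhfpl4, which holds GABA-A receptors at synapses, at 0.61 ± 0.11 (SE; limma adjusted p = 0.0319) for 3000 against 1000 ppm CO. No alternative setting is given here for Lhfpl4, and all 1000 ppm CO arrays lay on slide 2. The median of the glutamate receptor auxiliary list was 0.44 above air at 2 hours after 1000 ppm CO and at -0.31 at 0 hours after 5% O2.

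Of the probes outside the model, one Gabre probe was well above background in air, at a level of -3.59, and at 6 hours after 1000 ppm CO. In air it was at least 3.68-fold above each of the 10 arrays where it was not well above background. The second Gabre probe was not well above background in air and was so at 6 hours after 5% O2 alone, so the 2 probes differ. Gabre encodes the epsilon subunit. The summed level of choroid plexus and ependyma markers was 499.9 in air and 337.1 at 6 hours after 1000 ppm CO. It was 388.8 and 420.6 at 2 and 6 hours after 5% O2, where the first Gabre probe was not well above background. On the remaining arrays, where that probe was not well above background either, it lay between 3.99 and 230.9. Its part in the result was not tested. Gabra6, best known from cerebellar granule cells, was well above background on no array.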

How the data were processed

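Male rat striatum was measured on 12 one-colour Agilent arrays, 1 rat each. Per the file headers, Agilent Feature Extraction 10.7.3.1 gave each spot a background-subtracted processed signal, an intensity with no scaling between arrays, beside raw intensity columns. The authors' table of log2 values was checked against each array's processed signal (lowest correlation 0.9999). Here outlier spots were dropped, repeated spots averaged, log2 taken and each array's 75th percentile subtracted; 14 probes without a usable spot on some array were left out. Probes well above background on at least 3 arrays entered limma 3.58.1 (R 4.3.3), in an additive model of exposure and hour, two-sided, with 5 residual degrees of freedom. Differences from air of at least 2-fold were counted, with values not well above background raised to the array's floor. Python 3.11.15 prepared the tables. In simulated data for 3000 against 1000 ppm CO, 41% of 2-fold and 77% of 4-fold changes were called among 32230 probes. The simulated noise was independent between arrays, whereas the correlation within slides was estimated at 0.81 in the real data. These percentages therefore do not hold for data with slide effects.

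Members, lists and tests were chosen with earlier results of these data known, and the counts of probes on 1 side of air and of ranges were added after values were seen, as was the choice of genes in the plots by hour. Named genes were those past adjusted p 0.05 in a contrast, or else the 5 largest differences, and otherwise any member; a gene is given by its brightest probe. Some members' own results are not reported here, though the counts include them. The p-values rest on the spread of single rats around the additive model. That spread also holds slide effects and any course over the hours that differs between exposures. The number of arrays limits the precision. Alternatives were normexp, other scalings, filters, slide blocks, a marker covariate and leaving out each array.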

Additional observations from a re-analysis of the deposited data

Results flagged for a closer look

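Opposite differences of 6 from 0 hours, each of at least 1 on the log2 scale, were seen between exposures for 5 of 40 genes (12.5%, beside 4.92% of all probes), with 1 rat at each point, and the difference between exposures was not tested. From 0 to 6 hours the medium spiny neuron marker median went from 1.04 to -0.86 after 1000 ppm CO, from 0.20 to 0.64 after 3000 ppm CO and from -3.19 to 0.46 after 5% O2. That of septal and thalamic neurons went from -2.11 to 0.61, from -0.06 to -2.0 and from 1.03 to -0.52, in the same order. The part of these markers in the differences was not tested. Gabbr2 differed by 1.62 after 1000 ppm CO and by -1.68 after 5% O2. Grik1 differed by 2.10 after 1000 ppm CO, by -1.35 after 3000 ppm CO and by -1.03 after 5% O2. Grik2 differed by -1.23 after 1000 ppm CO and by 1.03 after 5% O2. Grin3b differed by 1.25 after 1000 ppm CO, where the 0 hour value was not well above background, and by -1.09 after 3000 ppm CO. Grm8 differed by 1.26 after 1000 ppm CO, by -1.23 after 3000 ppm CO and by -1.37 after 5% O2. Among probes outside the model, one Grm6 probe was well above background on the 1000 ppm CO array at 6 hours alone, at least 1.66-fold above air.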

How the results depend on the processing

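No paired analysis was possible because each combination of exposure and hour had 1 rat and no replicate numbers were shared. For 3000 against 1000 ppm CO, the count of 2 receptor probes became 0 with normexp, with the brightest probe per gene and with the slide as a random block, and lay between 0 and 2 when 1 array was left out. For 1000 ppm CO against 5% O2 it was 1 without time in the model, and between 0 and 16 when 1 array was left out. Pairs at least 2-fold lower than air numbered 4 with normexp, 13 against the median of the 12 arrays and 95 at 1.5-fold, against 25. Pairs higher numbered 12 with the brightest probe per gene, 8 against that median and 77 at 1.5-fold, against 21. Of 957 alternative values of 42 named differences, 925 kept direction and side of the threshold, 16 lost the call, 5 gained it and 11 turned sign. Only the 2 Gabbr1 differences were past the threshold in the main fit, and all 16 lost calls were theirs. The other named differences had no call to lose. Those that turned were Gabrg3 at 6 against 0 hours (0.35 with normexp, from -0.842 to 0.184 when 1 array was left out, the highest without 1000 ppm CO at 6 hours), and for 3000 ppm CO against 5% O2 Grm5 (-0.63 with the slide as a fixed factor, -0.31 as a random block) and Grin2a (-0.0195 with the fixed slide). For 5% O2 against air they were Grm4 (-0.42 and -0.11 with the fixed and random slide), Grin3b (-0.20 with the fixed slide) and Gabbr2 (-0.17 with the fixed slide, -0.21 with the medium spiny neuron marker covariate, and from -0.324 to 1.06 when 1 array was left out, the lowest without 5% O2 at 0 hours). The cause was not tested. All of these had adjusted p above 0.05 in every setting named. Probes near background have the least certain values.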
